A study of Mus musculus with 60 samples.

Results

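The genes described here are 37 mouse genes of oxygen sensing, glycolysis and the hypoxia response, read in fibroblasts that grew with or without lung cancer cells. They were chosen by name, as textbook members of these pathways and with earlier results of these data known. All 37 were found among the 48440 genes listed in each of 3 count tables. By role they comprise 4 oxygen sensing genes (Hif1a, Epas1, Egln1, Egln3), 11 of glucose uptake and upper glycolysis (Slc2a1, Hk1, Hk2, Gpi1, Pfkl, Pfkp, Pfkfb3, Pfkfb4, Aldoa, Aldoc, Tpi1), 5 of lower glycolysis (Gapdh, Pgk1, Pgam1, Eno1, Pkm), 3 of pyruvate and lactate handling (Ldha, Slc16a3, Pdk1), 4 mitochondrial hypoxia genes (Bnip3, Bnip3l, Fam162a, Higd1a), 2 of glycogen synthesis (Gys1, Gbe1) and 8 other hypoxia-responsive genes (Adm, Ndrg1, Ankrd37, Car9, Ddit4, Kdm3a, Ero1l, Mxi1). With too few counts to be tested were Aldoc in every table, Higd1a, Adm, Ankrd37 and Car9 in both aggregate tables, Gbe1 in the first aggregate table and Pfkfb4 in the shRNA table. That left 36 members tested in the Boyden chamber and 31 in each aggregate table.

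RNA sequencing was done on mouse cancer-associated fibroblasts (CAFs), which the labels call tCAFs without explaining the prefix, enriched by fluorescence-activated sorting. The cells grew alone, with 393P cells or with 344SQ cells, which are mouse lung adenocarcinoma lines known as poorly and highly metastatic. In multicellular aggregates, where the cell types touch, each group had 3 replicates, and a second aggregate table compared 3 replicates with 344SQ cells carrying a control shRNA (shCTL) and 3 with 344SQ cells carrying an shRNA against Zeb1 (shZEB1). In the Boyden chamber, where a membrane lets only soluble factors pass, each of the 3 groups had 5 biological replicates with 3 technical libraries each, which were summed. The shRNA groups had no CAFs alone. How many CAF lines or animals were used, and at what oxygen tension, is not given in the labels.

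Hypoxia-inducible factors are dimers of an oxygen-labile alpha subunit, encoded by Hif1a or Epas1, with a stable partner. In oxygen, prolyl hydroxylases such as the Egln1 and Egln3 products mark the alpha subunit for breakdown, so that much of the control lies on the protein and is not seen in Hif1a mRNA. When it persists, the dimer binds the short DNA core ACGTG or GCGTG and raises genes of glucose uptake, glycolysis, lactate export and mitophagy. In fibroblasts of tumours a shift towards glycolysis and lactate export is a much studied behaviour.

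Aggregate libraries held 757717 to 1258751 counts, shRNA libraries 739530 to 2144803, and Boyden sums 4182944 to 8542262, of which the 344SQ sums were the shallowest at 4182944 to 5857925. Levels are given as CPM, counts scaled to a common library size by the trimmed-mean method (TMM) within each table. Summed fibroblast markers, with Fn1 the largest, lay at 17543 to 22927 CPM in the aggregates and 22609 to 28002 in the Boyden chamber. In the shRNA table they lay at 4383 to 14048 CPM with shCTL cells and 13049 to 24769 with shZEB1 cells. The fibroblast marker Lum had no counts in aggregates of CAFs alone or with 393P. The carcinoma markers Epcam, Cldn3 and Esrp1 had no counts in the aggregates of CAFs alone. Summed carcinoma markers lay at 14.2 to 17.6 CPM in aggregates of CAFs alone, 23.5 to 101 with 393P and 25.4 to 36.7 with 344SQ. In the Boyden chamber they lay at 29.3 to 42.7, 21.5 to 94.1 and 31.1 to 54.3 CPM. In the shRNA table, however, replicate 3 with shCTL cells reached 1542 CPM and replicate 2 with shZEB1 cells 1159 CPM, against a low of 50.4. In bulk RNA, fewer cells of a type and less RNA per cell cannot be told apart.

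The promoters of 4 of the members called changed in the most comparisons are shown, with any hypoxia core marked. RefSeq promoters on GRCm38.p6 were found for 34 of the 37 members, with Ero1l listed as Ero1a, and no entry was found for Bnip3l, Epas1 or Ndrg1, the last of which was called most often. Each sequence holds the 250 bases before the start site, 5′ to 3′ on the gene's strand, with capitals marking ACGTG and GCGTG on either strand (CACGT and CACGC are their reverse complements, and the palindrome CACGTG is a match on both strands).
Fam162a, chr16:36071562-36071811, minus strand: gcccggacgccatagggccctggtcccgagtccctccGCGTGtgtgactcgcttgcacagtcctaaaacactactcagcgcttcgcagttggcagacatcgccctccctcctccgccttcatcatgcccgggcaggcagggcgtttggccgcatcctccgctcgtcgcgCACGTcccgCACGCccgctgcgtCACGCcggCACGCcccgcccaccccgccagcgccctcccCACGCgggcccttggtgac
Bnip3, chr7:138909507-138909756, minus strand: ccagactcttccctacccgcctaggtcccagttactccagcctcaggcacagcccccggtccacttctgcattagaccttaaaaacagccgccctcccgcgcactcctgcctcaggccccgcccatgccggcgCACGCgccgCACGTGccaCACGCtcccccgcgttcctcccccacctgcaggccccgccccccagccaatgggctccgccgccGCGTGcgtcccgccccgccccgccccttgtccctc
Egln3, chr12:54203875-54204124, minus strand: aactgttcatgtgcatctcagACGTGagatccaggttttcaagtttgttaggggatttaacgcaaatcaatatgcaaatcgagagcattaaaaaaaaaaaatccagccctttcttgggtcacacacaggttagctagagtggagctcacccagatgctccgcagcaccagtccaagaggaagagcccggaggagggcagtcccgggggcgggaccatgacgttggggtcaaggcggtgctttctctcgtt
Ddit4, chr10:59951771-59952020, minus strand: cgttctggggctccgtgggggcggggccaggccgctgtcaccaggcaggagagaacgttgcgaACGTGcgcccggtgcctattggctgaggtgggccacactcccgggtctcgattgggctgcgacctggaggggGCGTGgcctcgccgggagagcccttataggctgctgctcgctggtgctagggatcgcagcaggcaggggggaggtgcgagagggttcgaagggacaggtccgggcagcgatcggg
Fam162a carried 1 ACGTG and 5 GCGTG matches, Bnip3 2 and 3, Egln3 1 and 0, and Ddit4 1 and 1. Gys1, called in as many comparisons as these 4 and left out by the size of its p, held neither string. Among the 48 promoters listed for members, 45.8% held ACGTG and 50.0% held GCGTG, against 16.6% and 28.2% of all 32851 promoters of this length. Some members have several promoters, and those of Aldoa and Eno1 partly overlap. Counted by gene, 19 and 21 of 34 members held the strings, against 18.5% and 30.9% of 27025 genes. The members were chosen as textbook genes of the hypoxia response and related pathways, so these shares are no independent result. Member promoters also had a median GC content of 62.8%, against 52.4% for all, and its part in these shares was not tested. Such a match is a string of letters, not a measured binding site.

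In the Boyden chamber most hypoxia and glycolysis genes rose with 344SQ and fewer with 393P. With 344SQ, 28 of the 36 tested members rose and 1, Ndrg1, fell, where 14.9% of all 14040 genes were called (7.43% higher, 7.44% lower). With 393P, 15 rose and again only Ndrg1 fell, where 15.6% of all genes were called (7.68% higher, 7.96% lower). Comparing the lines directly, 23 members were higher with 344SQ than with 393P and none was lower, where 3.88% of genes were called (2.52% higher, 1.36% lower). The members' median log2 change was 0.55 with 344SQ and 0.22 with 393P, against 0.01 and 0.00 over all genes. The ranges were separate for 27 members between 344SQ and CAFs alone, against 9.93% of all genes, for 13 between 393P and CAFs alone (12.4% of all genes) and for 23 between the lines (4.46%). Both lines are set against the same CAFs alone. Beside these changes, summed mesothelial markers were lower with both lines. They lay at 254 to 339 CPM in CAFs alone, 180 to 239 with 393P and 162 to 204 with 344SQ. Lrrn4 was the largest, at 156 to 214, 109 to 149 and 91.8 to 122 CPM, and Krt5 had no counts. Summed endothelial markers lay at 14.6 to 19.0, 8.53 to 12.7 and 7.79 to 11.3 CPM. Most of this was Kdr, at 11.7 to 16.6, 6.83 to 10.4 and 5.51 to 9.74 CPM, and Emcn, Erg and Tie1 had no counts. Each sum thus rests mainly on its largest gene. The part of these markers in the results was not tested.

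Among the oxygen sensors, Hif1a, the alpha subunit of the classic hypoxia factor, was at 212, 238, 244, 229 and 244 CPM in CAFs alone, 214, 228, 201, 207 and 209 with 393P, and 374, 340.0, 351, 334 and 345 with 344SQ. All 344SQ values lay above all others, while the 393P and CAFs-alone values overlapped. The log2 change was 0.58 ± 0.06 (SE) with 344SQ (adjusted p = 2.71e-08) and -0.14 ± 0.06 with 393P (adjusted p = 0.0955), and 344SQ exceeded 393P by 0.72 ± 0.06 (adjusted p = 1.7e-09). Epas1, which encodes HIF-2 alpha, was low at 1.64, 0.822, 0.591, 0.751 and 1.62 CPM in CAFs alone, 2.65, 1.76, 1.58, 1.98 and 2.46 with 393P, and 3.44, 2.95, 2.08, 1.97 and 1.88 with 344SQ. It rose by 0.96 ± 0.30 with 393P, where 1 value lay within the CAFs-alone range, and by 1.21 ± 0.31 with 344SQ. CAFs alone held 11, 6, 5, 6 and 13 counts, where the filter's minimum, scaled for depth, is 10. The place of Epas1 in the test thus rests largely on the co-culture groups, and the size of both rises is uncertain. It is among the 15 and 28 members counted as rising.

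Both prolyl hydroxylase genes, themselves known targets of the factor, were higher with 344SQ. Egln1, which encodes the main oxygen sensor, was at 42.6, 48.9, 46.7, 47.2 and 41.8 CPM in CAFs alone, 57.7, 57.2, 59.7, 59.5 and 58.2 with 393P, and 78.6, 72.5, 71.5, 70.8 and 70.9 with 344SQ. The 3 groups did not overlap, in the order CAFs alone, 393P, 344SQ, and the changes were 0.36 ± 0.06 and 0.68 ± 0.06. Egln3, the more strongly inducible sensor, was at 3.73, 3.01, 3.07, 1.75 and 2.87 CPM in CAFs alone, 3.49, 4.80, 3.79, 3.96 and 5.65 with 393P, and 9.37, 8.85, 10.2, 7.21 and 13.4 with 344SQ. Its rise of 1.76 ± 0.20 with 344SQ (adjusted p = 4.59e-07) separated the groups, whereas its difference of 0.59 ± 0.22 with 393P did not pass the test (adjusted p = 0.0641).

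All 4 mitochondrial hypoxia genes rose with each line, without overlap with CAFs alone. With 393P the call of Bnip3l was lost with no count filter and without replicate 4 or 5 of CAFs alone or replicate 2 or 3 with 393P, and that of Higd1a in the first technical libraries alone. Bnip3, a mitophagy receptor, had the greatest rise of any member with 344SQ. It was at 6.86, 9.87, 7.80, 8.26 and 8.24 CPM in CAFs alone, 21.5, 16.3, 15, 16.7 and 19.0 with 393P, and 35.8, 36.6, 33.6, 26.9 and 40.1 with 344SQ. Its log2 change was 1.11 ± 0.13 with 393P (adjusted p = 1.56e-06) and 2.07 ± 0.12 with 344SQ (adjusted p = 3.24e-12), or 2.16-fold and 4.21-fold. Fam162a, a mitochondrial hypoxia-induced gene, had the smallest p of all members in both comparisons and was at 161, 139, 155, 157 and 151 CPM in CAFs alone, 229, 224, 206, 239.8 and 231 with 393P, and 333, 338, 332, 349.7 and 358 with 344SQ. Its 3 groups were separate, with changes of 0.57 ± 0.06 and 1.17 ± 0.06. Higd1a, which encodes a respiratory chain-associated protein, was at 20.1, 17.3, 19.4, 17.9 and 18.1 CPM in CAFs alone, 26.1, 26.4, 26.2, 28.3 and 30.1 with 393P, and 27.7, 32.6, 34.8, 43.7 and 34.3 with 344SQ, with changes of 0.57 ± 0.10 and 0.90 ± 0.10. The receptor gene Bnip3l changed by 0.18 ± 0.05 and 0.47 ± 0.05, a rise with each line.

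**Figure D1:**
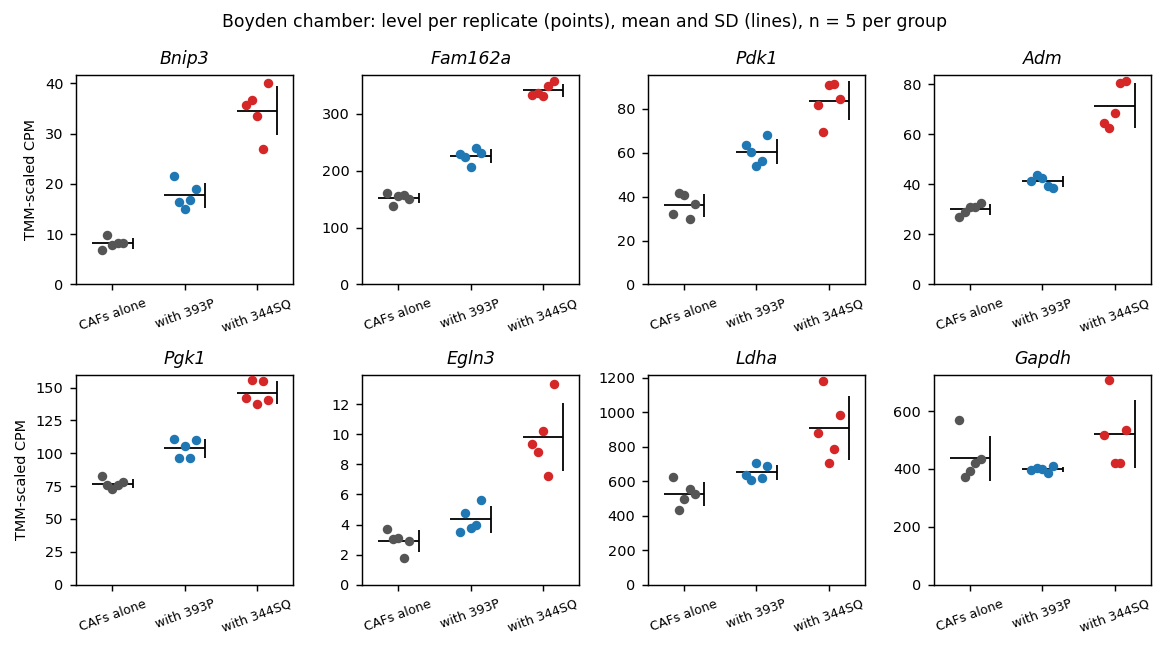
TMM-scaled CPM (vertical axes, from 0) of 8 genes in the Boyden chamber, with a point for each of 5 replicates per group and lines for the mean and SD. Bnip3, Fam162a, Adm and Pgk1 form 3 separate groups in the order CAFs alone, 393P, 344SQ, while the Gapdh values of CAFs alone overlap those of both co-cultures.

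All 3 genes that set the fate of pyruvate rose with each line. Pdk1, which encodes a kinase that inhibits pyruvate dehydrogenase, was at 31.9, 41.5, 40.6, 29.9 and 36.4 CPM in CAFs alone, 63.5, 60.4, 54.2, 56.4 and 68.2 with 393P, and 82.0, 69.6, 90.9, 91.6 and 84.5 with 344SQ. The groups did not overlap, and the changes were 0.75 ± 0.09 (adjusted p = 5.34e-06) and 1.21 ± 0.09 (adjusted p = 4.88e-10). Ldha, which encodes the lactate dehydrogenase subunit that favours lactate, was at 624, 434, 499, 557 and 527 CPM in CAFs alone, 637, 605, 709, 618 and 686 with 393P, and 877, 1180.0, 708, 789 and 986 with 344SQ. Its 344SQ values all exceeded those of CAFs alone, with a change of 0.78 ± 0.10, but overlapped those with 393P, which changed by 0.30 ± 0.10 (adjusted p = 0.0456). Slc16a3, which encodes the lactate exporter MCT4, changed by 0.69 ± 0.20 and 1.66 ± 0.19.

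In glucose uptake and upper glycolysis, 7 of 10 tested members rose with 344SQ and 1 with 393P. Slc2a1, the glucose transporter GLUT1, was at 121, 91.7, 96.5, 98.3 and 93.8 CPM in CAFs alone, 109, 106, 121, 109 and 132 with 393P, and 163, 199, 134, 149 and 152 with 344SQ. It rose with 344SQ by 0.68 ± 0.09, without overlap, and its difference of 0.20 ± 0.09 with 393P did not pass (adjusted p = 0.134). Hk2, the inducible hexokinase, was at 34.4, 48.9, 42.6, 41.7 and 45.3 CPM in CAFs alone, 46.8, 50.8, 37.3, 42.0 and 41.3 with 393P, and 63.9, 54.1, 75.0, 62.5 and 57.0 with 344SQ, with a rise of 0.55 ± 0.10 with 344SQ and a difference of 0.03 ± 0.10 with 393P that did not pass. The phosphofructokinase gene Pfkl had the greatest rise among glycolytic enzymes with 344SQ. It was at 28.3, 15.2, 22.3, 25.5 and 21.6 CPM in CAFs alone, 30.4, 24.0, 27.5, 30.3 and 33.6 with 393P, and 50.7, 55.7, 41.5, 40.7 and 59.8 with 344SQ, with all 344SQ values above all others and a change of 1.14 ± 0.13. Tpi1, triose phosphate isomerase, was at 181, 135, 144, 170.4 and 158 CPM in CAFs alone, 189, 169.6, 188, 181 and 197 with 393P, and 205, 282, 201, 215 and 244 with 344SQ, and rose by 0.54 ± 0.09 with 344SQ. With 393P it did not pass (0.23 ± 0.09, adjusted p = 0.0673), and the difference of 0.31 ± 0.09 between the lines passed (adjusted p = 0.0389).

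The fructose-2,6-bisphosphate enzymes, whose product drives phosphofructokinase, were called with 1 line each. Pfkfb3 was at 63.0, 66.5, 66.9, 68.5 and 63.6 CPM in CAFs alone, 73.4, 77.1, 69.5, 71.8 and 74.6 with 393P, and 76.1, 82.1, 82.9, 95.9 and 78.6 with 344SQ, above CAFs alone in every co-culture replicate, and rose with 344SQ (0.34 ± 0.07) while its difference with 393P did not pass (0.16 ± 0.06, adjusted p = 0.101). Pfkfb4 was at 1.94, 1.51, 2.13, 2.38 and 2.62 CPM in CAFs alone, 4.33, 2.88, 4.58, 3.50 and 5.07 with 393P, and 1.91, 2.08, 2.08, 3.28 and 2.58 with 344SQ. It rose with 393P by 0.94 ± 0.22, without overlap, and was 0.15 ± 0.25 with 344SQ (adjusted p = 0.75). The direct difference between the lines, -0.78 ± 0.23, missed the threshold (adjusted p = 0.0577).

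In lower glycolysis 4 of 5 genes rose with 344SQ and 1, Pgk1, with 393P. Pgk1, which encodes an enzyme that makes ATP, was at 82.7, 75.6, 72.7, 75.6 and 78.1 CPM in CAFs alone, 111, 96.1, 106, 96.2 and 110.3 with 393P, and 142, 156, 137, 155 and 140.3 with 344SQ. Its groups stood apart, with changes of 0.43 ± 0.06 and 0.93 ± 0.06 (adjusted p = 4.42e-11 for 344SQ). Gapdh, the enzyme before it, was at 569, 372, 392, 419.7 and 433 CPM in CAFs alone, 395, 402, 399, 385 and 409.6 with 393P, and 519, 708, 419.7, 420.1 and 535 with 344SQ. Values of CAFs alone overlapped those of both co-cultures, and the difference of 0.25 ± 0.11 with 344SQ did not pass (adjusted p = 0.135). The aldolase gene Aldoa and the isomerase gene Gpi1 likewise did not pass with either line. Gys1, which encodes muscle-type glycogen synthase, was at 40.8, 36.5, 38.0, 40.7 and 42.5 CPM in CAFs alone, 47.2, 33.1, 43.6, 41.8 and 40.1 with 393P, and 51.8, 66.1, 55.0, 54.0 and 64.8 with 344SQ. It rose with 344SQ (0.56 ± 0.09), its difference with 393P did not pass (0.05 ± 0.09, adjusted p = 0.74), and it was higher with 344SQ than with 393P by 0.50 ± 0.09 (adjusted p = 0.000758).

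Among the other hypoxia-responsive genes, Adm, which encodes the vasodilator adrenomedullin, was at 27.0, 28.9, 30.8, 30.8 and 32.7 CPM in CAFs alone, 41.3, 43.8, 42.7, 39.4 and 38.5 with 393P, and 64.6, 62.5, 68.6, 80.6 and 81.2 with 344SQ. Its 3 groups did not overlap, and it rose by 0.45 ± 0.08 and 1.24 ± 0.08 (adjusted p = 2.49e-11 for 344SQ). Ndrg1, commonly induced by hypoxia, went the other way, at 75.6, 78.1, 66.8, 65.6 and 73.6 CPM in CAFs alone, 49.3, 49.1, 36.5, 44.7 and 49.8 with 393P, and 58.7, 54.5, 55.4, 51.1 and 63.1 with 344SQ. All co-culture values lay below all values of CAFs alone, with changes of -0.65 ± 0.08 (adjusted p = 5.6e-06) and -0.35 ± 0.08 (adjusted p = 0.00455). It was higher with 344SQ than with 393P by 0.30 ± 0.09 (adjusted p = 0.0477). Car9, a carbonic anhydrase gene often read as a hypoxia marker, stayed near the limit of the assay, at 1.19, 2.06, 2.13, 2.13 and 1.25 CPM in CAFs alone, 0.698, 3.36, 0.948, 1.98 and 1.01 with 393P, and 2.10, 0.694, 2.29, 1.97 and 2.11 with 344SQ. The groups overlapped, and the 95% intervals of its log2 difference ran from -0.90 to 0.58 for 393P and from -0.74 to 0.80 for 344SQ.

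Ddit4, a stress-induced inhibitor of mTOR signalling, was at 7.45, 6.17, 7.92, 6.01 and 6.61 CPM in CAFs alone, 9.36, 12.2, 9.48, 8.37 and 10.9 with 393P, and 12.8, 14.4, 11.3, 18.1 and 12.2 with 344SQ in the Boyden chamber. It rose with both lines, by 0.55 ± 0.15 and 1.01 ± 0.15. The histone demethylase gene Kdm3a and the Myc antagonist gene Mxi1 also rose with both lines, and the oxidase gene Ero1l with 344SQ. Besides Gapdh, Aldoa, Gpi1, Pfkfb4 and Car9, the members that did not pass with 344SQ were Gbe1, a glycogen branching enzyme gene, and Ankrd37. Pseudogenes named after Gapdh, Pgk1, Pgam1, Ldha and Bnip3l are listed in the tables, so reads may be split between them and these members.

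In single technical libraries of the Boyden chamber the groups were separate for the sum of the hypoxia genes with 344SQ, and overlapped for the enzymes. Over 17 hypoxia genes (those of oxygen sensing, the mitochondrial and the other hypoxia genes, and Pdk1), the summed level per technical library, scaled by total counts, was 797 to 1004 CPM in CAFs alone, 963 to 1170 with 393P and 1418 to 1798 with 344SQ. Every 344SQ library lay above every library of the other groups. Hif1a, Fam162a and Ero1l weigh most in this sum, with means of 349, 342 and 223 CPM (TMM-scaled, technical libraries summed) with 344SQ. Over 14 glycolytic enzymes the sums were 1980 to 3848, 1651 to 3718 and 2215 to 5401 CPM, which overlap. Gapdh ran from 297 to 905 CPM among the 15 libraries of CAFs alone. The enzyme sum was highest in technical library 3 for 8 of the 15 replicates, in library 2 for 4 and in library 1 for 3. Technical libraries of a replicate were no more alike than others of their group, with a consensus correlation of -0.069 over 11237 genes (limma) and a median of -0.071 over 32 members, so the p-values rest on a spread that may be largely technical.

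**Figure D2:**
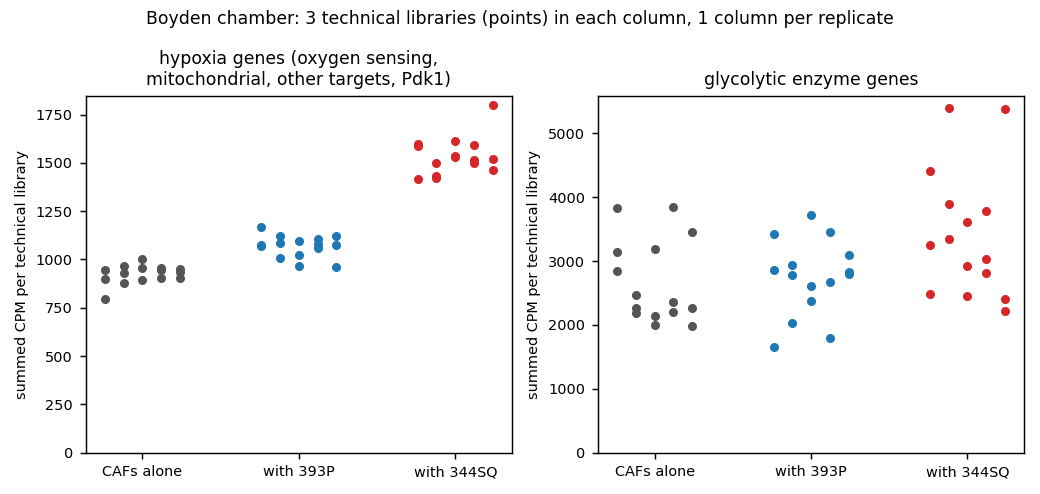
Summed CPM per technical library (vertical axes, from 0) in the Boyden chamber, with 3 points in each replicate's column and colours for the groups, for 17 hypoxia genes (left) and 14 glycolytic enzyme genes (right). On the left the 344SQ libraries, at 1418 to 1798 CPM, lie above all others, and on the right the 3 groups overlap.

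Of the 13 enzymes that passed the count filter, 10 were highest within their group in replicate 1 of CAFs alone and 10 in replicate 2 with 344SQ. Without both of these replicates, chosen for removal after the data were seen, 30 of 36 members were called with 344SQ, 22 with 393P and 24 between the lines, where 15.8%, 14.7% and 4.95% of all genes were called. With only the first technical library of each replicate, the counts were 16, 7 and 4 of 30 members tested, where 4.80%, 5.85% and 0.701% of genes were called. Among the members followed one by one through the alternatives, those no longer called with 344SQ in the first libraries were Gys1, Ndrg1, Pgam1, Pfkl, Pfkp, Tpi1, Pfkfb3, Slc2a1, Pkm, Ldha and Eno1. All but Ndrg1 belong to glucose uptake, glycolysis, lactate or glycogen. With 393P, 9 of the 16 called members lost their call in at least 1 alternative (Ddit4, Bnip3l, Epas1, Mxi1, Slc16a3, Egln1, Higd1a, Kdm3a and Ldha), against 11 of 29 with 344SQ and 18 of 23 between the lines.

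In the aggregates fewer members were called, and apart from Pfkfb4 with 393P no member of glycolysis, lactate handling or mitophagy rose. With 393P, 4 of 31 tested members rose and 7 fell, where 10.7% of all 7992 genes were called (5.41% higher, 5.27% lower). Of those that rose, Epas1 and Pfkfb4 had at most 7 counts in any library of CAFs alone and passed the count filter, whose minimum is 10, through the groups where they are high. With 344SQ, 2 rose and 2 fell, where 5.84% of all genes were called (3.48% higher, 2.36% lower). The median log2 change of the members was -0.17 with 393P and -0.10 with 344SQ, against 0.00 and -0.01 over all genes. These 2 comparisons share the CAFs-alone libraries, and summed carcinoma markers were higher in both co-cultures, as given above. Without replicate 3 with 393P, the aggregate library richest in them, 11 members were called with 393P. Without replicate 1 of CAFs alone only 6 members were called with 393P, and Gys1, Fam162a, Hif1a, Tpi1 and Bnip3 no longer passed.

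Epas1 and Egln3 rose with both lines. Epas1 was at 0.862, 2.64 and 3.14 CPM in CAFs alone, 17.8, 15.1 and 7.31 with 393P, and 14.4, 23.0 and 16.8 with 344SQ, from 1, 2 and 3 counts in CAFs alone, 19, 19 and 7 with 393P, and 14, 19 and 18 with 344SQ. Co-culture values lay above those of CAFs alone, and the fitted log2 change had a 95% interval of 1.41 to 3.83 with 393P and 1.84 to 4.19 with 344SQ. As it was tested only through its high groups, its size is uncertain, and in a fit of CAFs alone and 393P it did not pass the filter. Egln3 was at 19.0, 19.8 and 13.6 CPM in CAFs alone, 46.9, 53.1 and 44.9 with 393P, and 44.2, 61.8 and 24.3 with 344SQ. All co-culture values lay above those of CAFs alone, with changes of 1.47 ± 0.30 (adjusted p = 0.000975) and 1.29 ± 0.31 (adjusted p = 0.00899), and the latter was not called without replicate 2 with 344SQ or replicate 3 of CAFs alone. Hif1a was at 199, 140.1 and 151 CPM in CAFs alone, 97.6, 101 and 96.1 with 393P, and 174, 113 and 114 with 344SQ, and fell with 393P (-0.74 ± 0.19, adjusted p = 0.00695), while its difference with 344SQ did not pass (-0.30 ± 0.18). Egln1 was at 16.4, 19.8 and 18.8 CPM in CAFs alone, 20.6, 15.9 and 19.9 with 393P, and 22.6, 15.8 and 16.8 with 344SQ, with overlapping groups.

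The fructose-2,6-bisphosphate enzymes moved in opposite directions with 393P. Pfkfb3 was at 82.7, 58.2 and 75.3 CPM in CAFs alone, 19.7, 15.1 and 24.0 with 393P, and 47.3, 9.70 and 34.5 with 344SQ. It fell by 1.90 ± 0.32 with 393P and by 1.22 ± 0.31 with 344SQ on the log2 scale, without overlap, though the fall with 344SQ was not called without replicate 1 of CAFs alone or replicate 2 with 344SQ. Pfkfb4 was at 6.03, 3.96 and 1.05 CPM in CAFs alone, 29.1, 31.7 and 12.5 with 393P, and 6.17, 4.85 and 6.53 with 344SQ, from 7, 3 and 1 counts in CAFs alone, 31, 40 and 12 with 393P, and 6, 4 and 7 with 344SQ. It was called higher with 393P (95% interval of the log2 change 1.63 to 3.70) and lower with 344SQ than with 393P (-2.05 ± 0.47, adjusted p = 0.00651), and both tests rest on its passing the filter through the 393P group. Tpi1 was at 165, 141 and 119 CPM in CAFs alone, 67.6, 98.3 and 79.4 with 393P, and 147, 71.5 and 102 with 344SQ, and its change of -0.79 ± 0.21 passed with 393P (adjusted p = 0.0112), while the difference with 344SQ was -0.41 ± 0.21 (adjusted p = 0.343).

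Bnip3 and Fam162a, which rose in the Boyden chamber, fell with 393P in the aggregates. Bnip3 was at 35.3, 23.8 and 19.9 CPM in CAFs alone, 15, 6.34 and 8.36 with 393P, and 19.5, 10.9 and 24.3 with 344SQ, and changed by -1.43 ± 0.39 with 393P (adjusted p = 0.0118) and -0.52 ± 0.36 with 344SQ (adjusted p = 0.521). Fam162a was at 43.1, 26.4 and 18.8 CPM in CAFs alone, 9.38, 5.55 and 15.7 with 393P, and 20.6, 31.5 and 17.7 with 344SQ, with changes of -1.59 ± 0.39 and -0.38 ± 0.35 (adjusted p = 0.00531 and 0.665). For both genes the 393P values lay below all values of CAFs alone, and the 344SQ values overlapped them. Pdk1 was at 51.7, 23.8 and 19.9 CPM in CAFs alone, 6.57, 25.4 and 10.4 with 393P, and 33.9, 14.5 and 23.3 with 344SQ, and neither difference passed (-1.15 ± 0.41 and -0.43 ± 0.39).

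Gys1 fell with both lines. It was at 87.0, 75.3 and 64.8 CPM in CAFs alone, 46.0, 45.2 and 49.1 with 393P, and 42.2, 47.3 and 42.9 with 344SQ. Its co-culture values lay wholly below those of CAFs alone, with changes of -0.70 ± 0.20 (adjusted p = 0.0218) and -0.79 ± 0.21 (adjusted p = 0.0185). The call with 344SQ was lost by DESeq2 and without replicate 1 of CAFs alone or replicate 1 or 3 with 344SQ. Ndrg1 was at 79.3, 107 and 57.5 CPM in CAFs alone, 41.3, 29.3 and 23.0 with 393P, and 72.0, 88.5 and 62.5 with 344SQ. It fell with 393P (-1.36 ± 0.25, adjusted p = 0.000247), overlapped CAFs alone with 344SQ, and was higher with 344SQ than with 393P by 1.24 ± 0.25 (adjusted p = 0.00191). Ddit4 was at 56.9, 55.5 and 41.8 CPM in CAFs alone, 90.1, 98.3 and 93.0 with 393P, and 66.8, 60.6 and 38.2 with 344SQ, and rose with 393P by 0.87 ± 0.21 (adjusted p = 0.00527), a call lost without replicate 3 of CAFs alone.

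**Figure D3:**
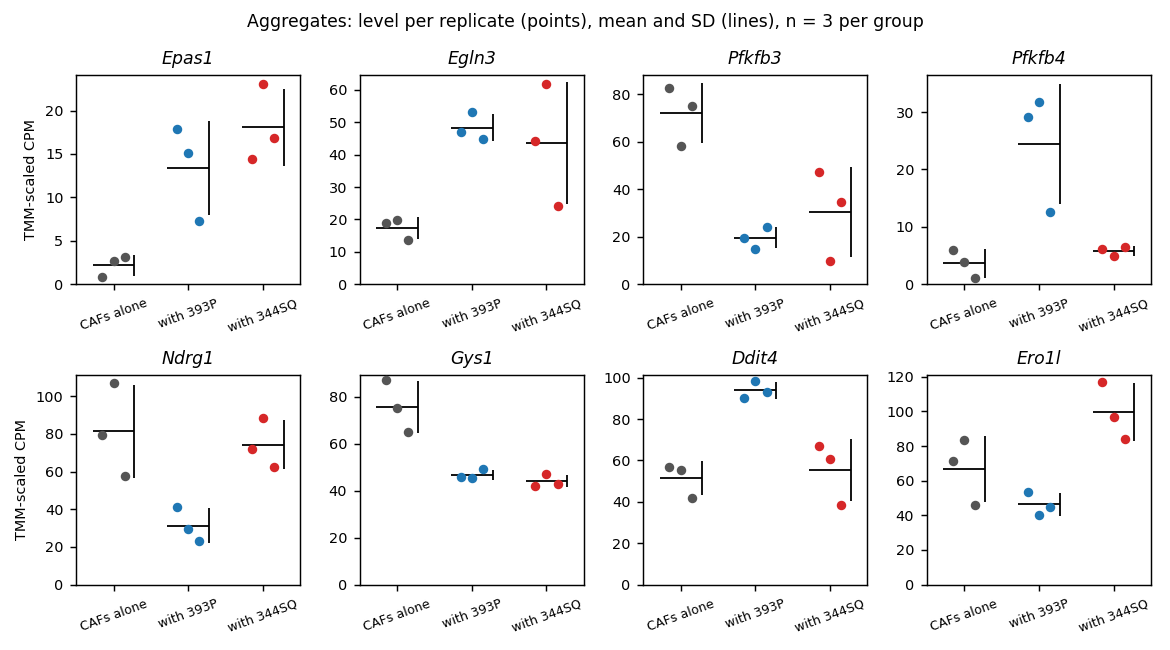
TMM-scaled CPM (vertical axes, from 0) of 8 members called in the aggregates, with a point for each of 3 replicates per group and lines for the mean and SD. Epas1 and Egln3 are higher and Pfkfb3 and Gys1 lower in all co-culture replicates than in CAFs alone, and Pfkfb4 is high with 393P.

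Between the lines in the aggregates, 2 members were higher with 344SQ (Ero1l and Ndrg1) and 2 lower (Pfkfb4 and Ddit4), where 4.15% of all genes were called (2.21% higher, 1.94% lower). Ero1l, which encodes an oxidase of disulfide formation in the endoplasmic reticulum, was at 71.5, 83.3 and 46.0 CPM in CAFs alone, 53.5, 40.4 and 44.9 with 393P, and 117, 97.0 and 84.0 with 344SQ. Its 344SQ values exceeded all others, with a difference of 1.10 ± 0.22 (adjusted p = 0.00147). Without replicate 2 with 393P, Pfkfb4 and Ddit4 were no longer called, which left 2 members. Slc2a1, Hk2, Ldha and Pgk1 passed in none of the 3 aggregate comparisons. Slc2a1 was at 296, 433 and 197 CPM in CAFs alone, 293, 221 and 203 with 393P, and 288, 249.7 and 252 with 344SQ, and Hk2 at 42.2, 42.3 and 31.4 CPM in CAFs alone, 62.9, 49.2 and 21.9 with 393P, and 36.0, 21.8 and 25.2 with 344SQ. Ldha was at 213, 209 and 186 CPM in CAFs alone, 181, 163 and 116 with 393P, and 197, 141 and 180.1 with 344SQ, and Pgk1 at 22.4, 7.93 and 8.36 CPM in CAFs alone, 16.9, 15.9 and 6.27 with 393P, and 22.6, 12.1 and 16.8 with 344SQ. Apart from Ldha, whose 393P values lay just below those of CAFs alone (-0.40 ± 0.18, adjusted p = 0.165), these groups overlapped. Car9 and Adm, too low to be tested, were at 0.862, 3.96 and 2.09 CPM in CAFs alone, 0.938, 0 and 0 with 393P, and 0, 0 and 0.933 with 344SQ for Car9 and 2.59, 10.6 and 3.14 CPM in CAFs alone, 0, 0 and 1.04 with 393P, and 2.06, 7.27 and 0.933 with 344SQ for Adm.

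The test of the difference between formats, aggregate change minus Boyden change in a joint fit of 15193 genes, was called for 12 members with 393P, 1 positive and 11 negative, where 8.98% of genes were called (5.32% positive, 3.66% negative). With 344SQ it was called for 13, all negative, where 4.73% were called (2.61% positive, 2.13% negative). The members' median difference was -0.29 with 393P and -0.72 with 344SQ, against 0.03 and 0.00 over all genes. The 36 members tested include Adm, Higd1a, Gbe1, Ankrd37 and Car9, which failed the aggregate filter and entered through their Boyden counts. Over the 31 that passed it, 11 were called with 393P (1 positive, 10 negative; median -0.29) and 13 with 344SQ (median -0.55). Called with both lines were Bnip3, Fam162a, Pdk1, Pfkfb3, Pfkl, Gys1, Tpi1, Hif1a and Ldha. In at least 1 alternative, 9 of the 12 called members with 393P and 8 of the 13 with 344SQ lost their call. Among the genes called with both lines, only Bnip3, Fam162a and Pfkfb3 kept both calls in every alternative. Bnip3 had a difference of -2.50 ± 0.36 with 393P and -2.55 ± 0.33 with 344SQ, and Fam162a of -2.13 ± 0.32 and -1.54 ± 0.28. For Pfkfb3 it was -2.01 ± 0.27 and -1.51 ± 0.25, and for Pdk1 -1.84 ± 0.38 and -1.62 ± 0.35. Pfkfb4, with 1.84 ± 0.54 for 393P, was the member with a greater rise in the aggregates. Adm had the most negative value with 393P, but rests on 3, 8 and 3 counts in aggregates of CAFs alone and 0, 0 and 1 with 393P. Its size depends on the fit's prior count, and its call was lost without replicate 2 of the CAFs-alone aggregates. Without replicate 1 of the CAFs-alone aggregates the 393P count was 6, and with the first technical libraries the counts were 5 and 7. Format and table, with their different depth and library content, cannot be told apart. Ribosomal RNA-like genes took 18.9% to 24.9% of counts in the aggregates and 0.284% to 0.497% in the Boyden chamber. Summed mesothelial markers in CAFs alone lay at 3.52 to 10.6 CPM in the aggregates and 254 to 339 in the Boyden chamber, there mostly Lrrn4.

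**Figure D4:**
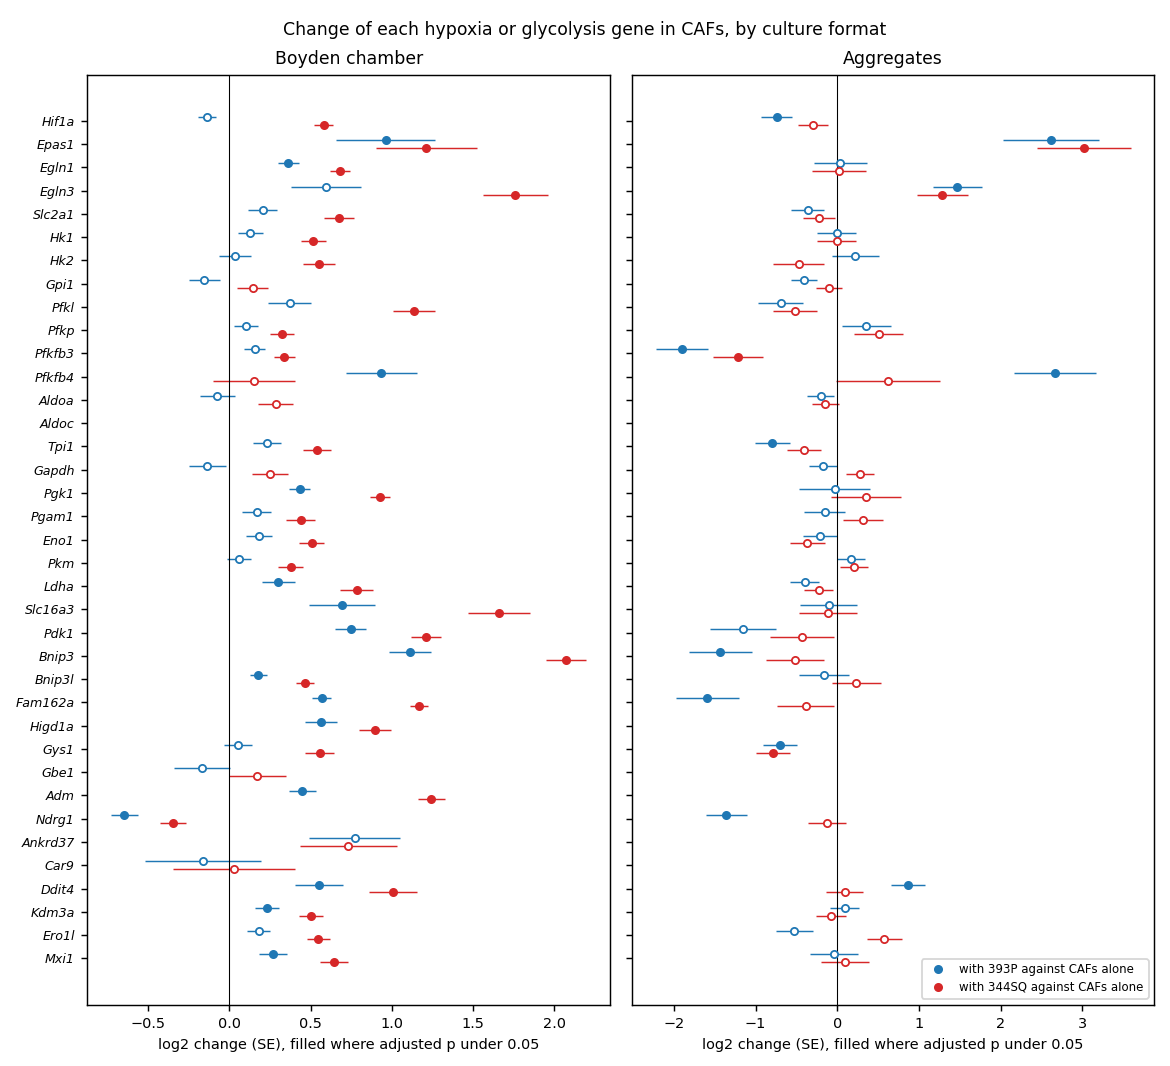
Log2 change against CAFs alone (horizontal axes, bars for the SE) of each member with 393P (blue) and 344SQ (red), in the Boyden chamber (left) and the aggregates (right), filled where the adjusted p was under 0.05. In the Boyden chamber 28 members are filled to the right of 0 with 344SQ, against 2 in the aggregates; the horizontal scales of the panels differ.

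Per kilobase of exon, related genes took different shares of their pair. Hif1a made up 99.5% of the Hif1a and Epas1 level in Boyden CAFs alone, 99.0% with 393P and 99.3% with 344SQ. In the aggregates it was 98.6% in CAFs alone and 87.4% and 87.5% in the 2 co-cultures, and with shCTL and shZEB1 cells 79.2% and 66.5%. Egln1 made up 92.1% of the Egln1 and Egln3 level in Boyden CAFs alone but 43.8% in the aggregates of CAFs alone, 22.4% with 393P and 23.9% with 344SQ. Pfkfb3 made up 92.7% of its pair with Pfkfb4 in aggregates of CAFs alone, 77.1% with 344SQ and 34.1% with 393P. Bnip3 took 12.3% of its pair with Bnip3l in Boyden CAFs alone, 21.1% with 393P and 30.0% with 344SQ. The shares are descriptions, and the tables were scaled separately.

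With the Zeb1 shRNA in the 344SQ cells, no member was called and 0 of all 7801 genes were called by edgeR's quasi-likelihood test (0%), with 466 genes and 3 members at an unadjusted p under 0.05, and 26 genes and 0 members called by DESeq2. Zeb1 itself in these sorted CAFs was at 71.8, 105 and 50.3 CPM with shCTL cells and 144, 48.4 and 120 with shZEB1 cells, which does not check the knockdown in the cancer cells. Ero1l was at 110.0, 153 and 131 CPM with shCTL cells and 43.0, 11.7 and 35.2 with shZEB1 cells. All shZEB1 values lay below all shCTL values, and the log2 difference was -2.09 ± 0.56 (adjusted p = 0.692). Mxi1, Gapdh and Pkm also had separate groups, 4 members in all, against 11.7% of all genes. Hif1a was at 112, 255 and 211 CPM with shCTL cells and 79.5, 138 and 45.5 with shZEB1 cells, and Fam162a at 134, 199 and 60.9 CPM with shCTL cells and 57.1, 63.1 and 56.4 with shZEB1 cells. Their differences, -1.15 ± 0.52 and -1.16 ± 0.52, did not pass (adjusted p = 0.799 and 0.799). Without shCTL replicate 3 and shZEB1 replicate 2, which held the most carcinoma marker counts, 0 members and 1 of all genes were called.

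The spread between shRNA replicates was wide, with a biological coefficient of variation of 61.7%, against 16.2% in the first aggregate table and 8.58% in the Boyden chamber. Egln3 was at 41.7, 78.8 and 3.87 CPM with shCTL cells and 18, 13.2 and 16 with shZEB1 cells, and Slc2a1 at 233, 493 and 341 CPM with shCTL cells and 338, 120.3 and 470.3 with shZEB1 cells. The 95% interval of the log2 difference ran from -1.28 to 0.89 for Slc2a1 and from -2.70 to 1.31 for Bnip3, which spans both a fall and a rise. The members' median difference was -0.28, against -0.02 over all genes.

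Genes of the same pathways outside the 37 members gave a mixed reading. Of 21 other hypoxia-responsive genes tested in the Boyden chamber, 8 rose and 3 fell with 344SQ, where 7.43% of all genes were called higher and 7.44% lower. With 393P none rose and 5 fell, where 7.68% of all genes were called higher and 7.96% lower. Between the lines 7 were higher with 344SQ and none lower, where 2.52% of all genes were called higher and 1.36% lower. P4ha2, a collagen prolyl hydroxylase gene, rose with 344SQ by 0.90 ± 0.08, Angptl4, a lipase inhibitor gene, by 0.96 ± 0.10, and the glycoprotein hormone gene Stc1 by 1.17 ± 0.18. With 393P the haem oxygenase gene Hmox1 fell by 0.43 ± 0.08 and the collagen crosslinker gene Lox by 0.41 ± 0.08. Of 28 genes of pyruvate dehydrogenase and the citric acid cycle, 0 were called with 344SQ, with 7 at an unadjusted p under 0.05 by edgeR. With 393P, Suclg1 and Sucla2 rose and Ogdh fell. None of 13 other glycolysis genes or 8 pentose phosphate genes was called by edgeR with either line. Unadjusted p was under 0.05 for 2 of the former and 0 of the latter with 393P, and for 1 and 2 with 344SQ. Between the lines, the MCT chaperone gene Bsg and the transaldolase gene Taldo1 were higher with 344SQ. Of 12 tested regulators of the factor, Arnt2 and Crebbp fell with 393P and Crebbp with 344SQ. Among glycogen genes Pgm2 rose with 393P (0.27 ± 0.07) and 344SQ (0.67 ± 0.08).

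In the aggregates, 3 of 19 tested other hypoxia-responsive genes rose and 4 fell with 393P, where 5.41% of all genes were called higher and 5.27% lower. With 344SQ 2 rose and 1 fell, where 3.48% of all genes were called higher and 2.36% lower. Between the lines 3 were higher with 344SQ and 1 lower, where 2.21% of all genes were called higher and 1.94% lower. Stc1 rose by 2.65 ± 0.36 with 393P and 1.51 ± 0.37 with 344SQ, from a mean of 56.6 CPM in CAFs alone to 348 and 156 CPM. Vegfa, the main hypoxia-induced growth factor of vessels, rose with 344SQ by 1.04 ± 0.18, from a mean of 246 to 509 CPM. Plod2, which encodes a collagen lysyl hydroxylase, fell by 1.17 ± 0.23 with 393P and by 1.23 ± 0.23 with 344SQ on the log2 scale.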

How the data were processed

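The deposited counts, whole numbers of reads per gene, were made by the authors with STAR and HTSeq on mm10, per the submitters' processing notes; the strand setting is not given in the sources used here. The members and lists were chosen with earlier results of these data known. Counts of the 3 technical libraries were added up for each replicate of the Boyden chamber. Each table was filtered with filterByExpr (minimum count 10), scaled by TMM and fitted with edgeR 4.0.16 (R 4.3.3; quasi-likelihood test, all groups of the table, Benjamini-Hochberg adjustment over all genes, calls at 0.05), which was tested on simulated data; the format comparison fitted both tables jointly. Every p-value and adjusted p in the text is from edgeR unless another tool is named. DESeq2 1.42.0 was an alternative and limma 3.58.1 gave the correlation of technical libraries. Other alternatives were no filter, RLE scaling, fits of only the groups compared, removal of ribosomal and mitochondrial genes, the replicate number as a block, single technical libraries and left-out replicates. Figures were drawn with matplotlib 3.10.9. Whether replicates are separate cultures or animals is not given for the aggregates, so p-values measure the spread between samples, which may be technical.

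Values were given for members called in a comparison, up to the 8 of smallest p in each direction, for Hif1a, Epas1, Egln1, Egln3, Slc2a1, Hk2, Pgk1, Ldha, Pdk1, Bnip3, Adm and Car9 always, and for up to 6 members called between formats per line. Of each context list up to 3 called genes were named per comparison; 1 of them is not reported here. Gapdh and other members outside this rule were chosen after their values were seen. Of the members called in the most comparisons, those with promoter entries and the smallest p have their promoters printed; that tie-break was not part of the rule.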

Additional observations from a re-analysis of the deposited data

Results flagged for a closer look

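Of 108 groups of 5 Boyden replicates tested for a replicate far from the others (a gap to its nearest neighbour above 0.71 of the range), 3 had one, and chance gives about 1 in 20. Slc2a1 was 121 CPM in replicate 1 of CAFs alone, the next being 98.3. Egln1 was 78.6 CPM in replicate 1 with 344SQ, the next being 72.5. Car9 was 0.694 CPM in replicate 2 with 344SQ, the next being 1.97.

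The change with a cancer line differed between formats for the following members, as the log2 change in aggregates minus that in the Boyden chamber. With 393P the differences were -0.54 for Hif1a, -0.99 for Pfkl, -2.01 for Pfkfb3, 1.84 for Pfkfb4, -0.95 for Tpi1 and -0.62 for Ldha. They were -1.84 for Pdk1, -2.50 for Bnip3, -2.13 for Fam162a, -0.69 for Gys1, -4.29 for Adm and -0.63 for Ero1l, and that of Adm, which failed the aggregate filter, depends on the prior count. With 344SQ they were -0.84 for Hif1a, -0.84 for Slc2a1, -1.61 for Pfkl, -1.51 for Pfkfb3, -0.91 for Tpi1, -0.82 for Eno1 and -0.96 for Ldha. For the other members they were -1.73 for Slc16a3, -1.62 for Pdk1, -2.55 for Bnip3, -1.54 for Fam162a, -1.31 for Gys1 and -0.88 for Ddit4. Format and table cannot be told apart, and the joint fit may understate the spread of the aggregates, as given above.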

How the results depend on the processing

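Over the alternatives, none of 2009 values of called members changed sign and 203 lost their call, 132 of them with a replicate left out and 49 with the first technical library alone. The first technical library gave 7, 16 and 4 members called in the Boyden chamber (393P, 344SQ, between lines) and 5 and 7 between formats (393P, 344SQ), with 609, 500, 73, 818 and 364 of all genes. Leaving out 1 replicate gave 6 to 12, 2 to 4 and 2 to 5 members in the aggregates (393P, 344SQ, between lines), 11 to 20, 29 to 31 and 19 to 26 in the Boyden chamber, and 6 to 12 and 10 to 15 between formats. Over all genes the ranges were 625 to 770, 284 to 421 and 244 to 314 in the aggregates, 1581 to 2289, 1581 to 2774 and 378 to 759 in the Boyden chamber, and 1106 to 1380 and 565 to 797 between formats. The aggregate count with 344SQ was 2 without replicate 1 of CAFs alone or replicate 2 with 344SQ, and 284 of all genes were called without replicate 3 of CAFs alone. The shRNA comparison gave 0 members under each replicate left out, and over all genes 90 without a filter, 26 by DESeq2, 1 with the replicate block, 1 without the libraries richest in carcinoma markers (shCTL replicate 3 and shZEB1 replicate 2), and 0 with any 1 replicate left out. Same-numbered samples shared only a number (correlations from -0.303 to 0.265), and the replicate block gave 11, 4, 4, 0, 13, 29, 21, 12 and 12 members in the order aggregates, shRNA, Boyden chamber, formats. The cause of these moves was not tested. Few counts limit Epas1, Pfkfb4, Adm and Car9 in the aggregates, Pfkfb4, Adm and Car9 in the shRNA table, and Epas1 (5 to 19 counts) and Car9 (4 to 21) in the Boyden sums.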
